A study of Mus musculus with 6 samples.

Results

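Transcripts annotated as targets of nonsense-mediated decay were measured in mouse interscapular brown fat, a depot that burns lipid to make heat, by nanopore sequencing of full-length cDNA. The members are all transcripts with at least 1 read in any file whose biotype in the GENCODE M21 annotation of the mouse genome build GRCm38 is nonsense_mediated_decay. The rule took 765 of the 14671 transcripts with reads that matched the annotation, out of 7186 transcripts of this biotype that the annotation holds. They belong to 678 genes, called host genes here, and gathered 289742 of 13457246 reads, or 2.15%. No read count entered the rule beyond the first read.

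The 6 libraries came from male wild type C57BL/6N mice aged 20 weeks. In the cold group (mice 4, 11 and 15) each mouse was held alone at 4 °C for 24 h before the tissue was taken, and the other 3 mice (2, 9 and 14) were controls. The cold treatment is written on the records of all 6 samples, so the groups rest on the sample titles and the treatment tag. Husbandry at 22 to 24 °C is the only housing known for the controls, and cold and single housing cannot be told apart. Nothing in the labels says that mice were pooled. The p-values measure the spread between these 6 mice.

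Nonsense-mediated decay is a surveillance process that removes messenger RNAs on which translation stops too early. In mammals the usual mark is an exon junction complex, a protein complex left on the RNA at each splice junction, that remains downstream of the stop codon because the ribosome stopped before it could displace it. The core factor UPF1 then joins the terminating ribosome and recruits the SMG proteins and the decay enzymes. Alternative splicing that brings in such a stop codon is used by many genes, splicing factors and ribosomal proteins among them, to set the amount of productive messenger RNA.

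Structure was read from the annotation. Counts entered only through the choice of members with a read and of the coding transcript compared with them. All 765 members had an annotated stop codon, which was TGA in 430, TAA in 185 and TAG in 150. In 761 members the stop codon lay at least 50 nt before the last exon junction, and the other 4 members held 5 reads together. The biotype itself rests on this distance, so it describes the label and is no finding. The median distance was 368 nt, with a median of 3 junctions after the stop codon. For comparison, the coding transcript with the most reads in each host gene, called the leading coding transcript here, was measured in the same way. In 73 of 657 cases no coding transcript of the gene had a read, and the longest one was taken. Over 653 such transcripts the median was -122 nt, so that the stop codon followed the last junction, and 5 had a stop codon at least 50 nt before it.

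**Figure D1:**
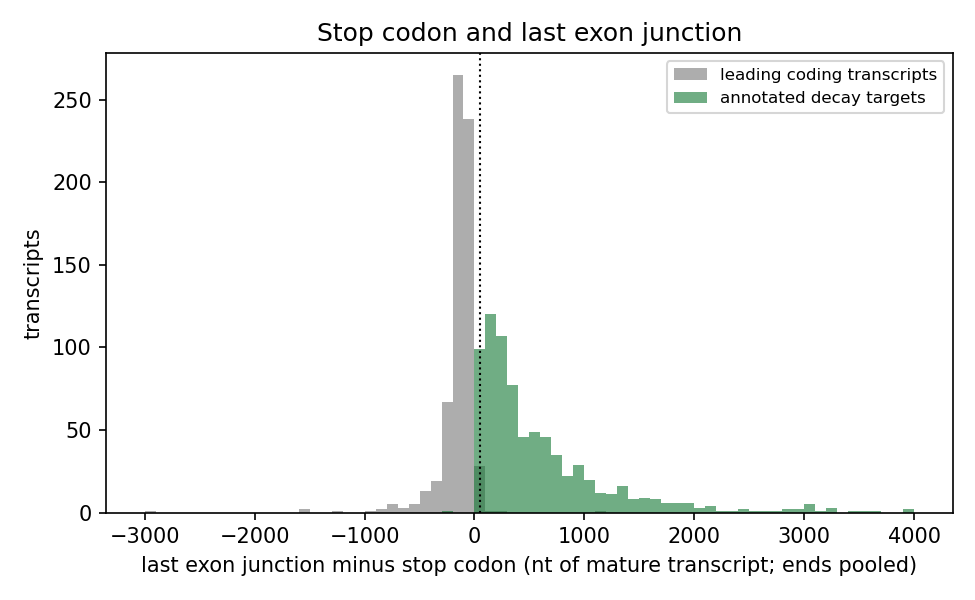
Distance from the stop codon to the last exon junction along the mature transcript, in nt, for the annotated decay targets (green) and for the leading coding transcripts of their genes (grey), with the number of transcripts per bin of equal width on the vertical axis. The dotted line stands at 50 nt, and the medians are 368 nt for the targets and -122 nt for the leading coding transcripts.

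The members reached their early stop codon in a few recurring ways. Against the leading coding transcript, 366 members had a shifted splice site, 241 an extra internal exon, 167 a skipped exon and 48 a retained intron, and 1 transcript can count under several of these. Of 238 members with a single extra exon, whose median length was 104 nt, 171 had an exon length that is not a multiple of 3, which shifts the reading frame, and 67 had one that is. For 563 members the reading frame could be followed from a start codon shared with the leading coding transcript. They kept a median of 216 coding nt and added a median of 42 nt of their own up to the stop codon, and the resulting frame had a median of 38.5% of the reference length. The stop codon was that of the leading coding transcript in 48 members. Lpl-203 was the one with the most reads among those that kept the whole frame, and there an additional intron follows the normal stop codon.

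The turn from the shared reading frame into the early stop codon is shown for the members on which the results below turn. Lower case letters are the last 15 coding bases shared with the leading coding transcript. Capitals run from the first base of the exon structure that is not shared through the stop codon. The continuation of the leading coding transcript, all in lower case, stands under each of the first 3 members. All sequences are from the GENCODE M21 transcripts, written 5′ to 3′ on the strand of the gene.
Pnpla2-201: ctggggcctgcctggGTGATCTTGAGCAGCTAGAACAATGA
Pnpla2-203: ctggggcctgcctgggtgaagcaggtgcca
Ftl1-202: ttccaggatgtgcagGCTTGA
Ftl1-201: ttccaggatgtgcagaagccatctcaagat
Uqcc1-207: cacaacacaagtaagTAG
Uqcc1-204: cacaacacaagtaagcttcttactacccaa
Atp5f1-203: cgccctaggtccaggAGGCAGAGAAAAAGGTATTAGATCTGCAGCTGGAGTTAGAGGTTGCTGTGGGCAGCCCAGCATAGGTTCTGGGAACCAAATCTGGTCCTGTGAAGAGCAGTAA
Dbi-204: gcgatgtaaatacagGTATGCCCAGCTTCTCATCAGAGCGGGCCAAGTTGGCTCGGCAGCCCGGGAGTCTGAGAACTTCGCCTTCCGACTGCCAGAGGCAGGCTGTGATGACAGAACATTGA
Fuom-212: tgtggttgcaaccggGTGA
Pgk1-203: ctcaacaacatggagTATAGGGGCTGA
Cars2-205: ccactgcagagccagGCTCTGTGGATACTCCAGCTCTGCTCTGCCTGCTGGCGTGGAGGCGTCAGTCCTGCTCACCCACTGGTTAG
1700037H04Rik-207: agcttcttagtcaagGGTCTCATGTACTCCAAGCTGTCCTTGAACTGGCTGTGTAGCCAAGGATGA
Creg1-203: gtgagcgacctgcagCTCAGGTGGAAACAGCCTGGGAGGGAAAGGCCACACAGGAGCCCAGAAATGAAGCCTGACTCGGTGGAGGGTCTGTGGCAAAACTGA
Isca1-206: gacaaacctgagcatGTAAGTAACTGTTGA
Mrpl42-205: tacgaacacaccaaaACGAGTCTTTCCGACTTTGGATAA
Ramp2-203: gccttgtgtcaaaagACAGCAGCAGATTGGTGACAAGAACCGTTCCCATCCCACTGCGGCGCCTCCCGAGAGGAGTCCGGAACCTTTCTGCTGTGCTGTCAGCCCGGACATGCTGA

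These stretches lie in the bodies of their genes. In Pnpla2-201 the capitals open an extra exon of 82 nt at chr7:141456568-141456649 on the plus strand, which ends the frame after 70 codons, with 8 junctions still to come. In Atp5f1-203 they fill the start of an extra exon of 167 nt at chr3:105957870-105958036 on the minus strand. Uqcc1-207 differs from Uqcc1-204, within the ends of the latter, by 3 inserted bases only, and these are themselves the stop codon TAG. Ftl1-202 differs by 21 inserted bases, of which the first 6 hold the stop codon. In Dbi-204 the inserted stretch is 106 nt, and the stop codon is split over the next junction.

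The sequencing depth differed between the groups. Library totals ran from 1014847 to 1849431 reads in the controls and from 2923005 to 2982713 in the cold, so that every cold library was deeper than every control library. A floor of 3 reads stands for 1.01 to 2.96 counts per 1e+06 reads of the library total, depending on the library and before the scaling of edgeR. Levels are given in CPM (counts per 1e+06 reads on the edgeR scale). Reads were amplified by PCR without molecular identifiers, so intervals and floors cover counting error only. All 9 brown adipocyte markers had reads, with a summed level of 46378 to 55666 CPM in the controls and 49338 to 53105 CPM in the cold. Ucp1, on that list, stood at 4605, 4131 and 4774 CPM in control replicates 2, 9 and 14. In cold replicates 4, 11 and 15 it stood at 4121, 4066 and 4154 CPM. Of 4 white adipocyte markers, 3 had reads. They summed to 0.539 to 2.05 CPM in the controls and to 1.64 to 16.8 CPM in the cold. The extraction text, by contrast, names eWAT, a white fat depot. The 7 skeletal muscle markers summed to 74.9 to 450 CPM in the controls and to 113 to 7324 CPM in the cold, the highest value being that of cold replicate 15. The part of muscle RNA in the results below was not tested, and the calls that changed without that library are given beside the results. In whole tissue, fewer cells of a type and less RNA per cell cannot be told apart.

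The share of reads on the members was near 2% in every library. It was 2.10%, 1.90% and 2.09% in control replicates 2, 9 and 14, and 2.14%, 2.28% and 2.19% in cold replicates 4, 11 and 15. The 95% Wilson interval of the shallowest library, control replicate 9, ran from 1.88% to 1.93%. Each cold library was above each control library, and the means were 2.03% ± 0.111 (SD, n = 3) and 2.20% ± 0.0746 (SD, n = 3). The difference of 0.173 percentage points gave an exact two-sided permutation p of 0.1, which is the smallest that 10 splits of 3 against 3 allow. With mitochondrially encoded transcripts left out of the total, the difference was 0.121 points and the groups overlapped (exact permutation p = 0.2), and without control replicate 9 it was 0.110 points.

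A single transcript carried much of this share. Pnpla2-201 alone held 143137 reads, or 49.4% of the reads of the class. The 5 members with the most reads held 81.7%, the first 10 held 87.5% and the first 50 held 96.4%. At the other end, 263 members had 1 read in all 6 libraries together, 535 had fewer than 10, and the median member had 3. Without Pnpla2-201 the class took 0.982% ± 0.145 (SD, n = 3) of control reads and 1.13% ± 0.10 (SD, n = 3) of cold reads, and the groups overlapped (exact permutation p = 0.3). Without the first 5 members the shares were 0.351% ± 0.0326 and 0.413% ± 0.0346 (SD, n = 3 each, exact permutation p = 0.2).

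**Figure D2:**
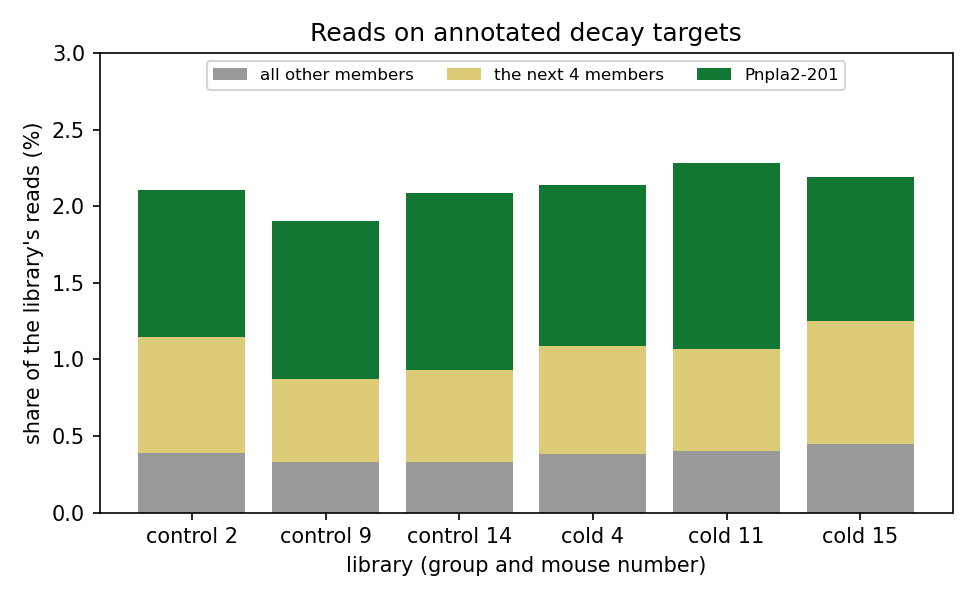
Share of each library's reads that fell on annotated decay targets, in percent, stacked into Pnpla2-201 (green), the next 4 members by reads (yellow) and all other members (grey). Whole bars run from 1.90% to 2.28%, and the cold bars stand just above the control bars.

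Within the reads of their own genes the mean share of the members was lower in the cold, and the groups overlapped. The members held 13.5%, 13.2% and 13.4% of the reads of the host genes in control replicates 2, 9 and 14, and 12.4%, 13.2% and 13.1% in cold replicates 4, 11 and 15. The means were 13.4% ± 0.161 and 12.9% ± 0.440 (SD, n = 3 each), a difference of -0.456 percentage points (exact permutation p = 0.2), or -0.202 points without cold replicate 4. Without Pnpla2-201 the share was instead higher in the cold by 0.164 points. The host gene reads include Lpl-201, the leading coding transcript of Lpl, with 6926, 3784 and 9955 reads in control replicates 2, 9 and 14. In the deeper cold replicates 4, 11 and 15 it had 54456, 55985 and 47694 reads. The part of Lpl in the lower share was not tested. The host genes themselves took 15.6%, 14.4% and 15.5% of all reads in the controls and 17.2%, 17.3% and 16.7% in the cold. Thus the share of all reads was higher in the cold while the share of host gene reads was lower, and neither difference passes a test that cannot go below 0.1. Taken over 244 host genes with at least 10 reads in each library and weighted equally, the members' share was 15.0% ± 0.151 in the controls and 14.8% ± 0.316 in the cold (SD, n = 3 each, exact permutation p = 0.4).

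The number of members seen went with depth. As deposited, 356, 266 and 350 members had reads in control replicates 2, 9 and 14, against 425, 416 and 443 in cold replicates 4, 11 and 15. Thinned to 1014812 reads each, the controls showed 276 ± 9.29 members and the cold libraries 281 ± 18.5 (SD, n = 3 each, exact permutation p = 0.9). At that depth the members made up 4.47% of all transcripts seen in either group. Among the other annotation classes, protein_coding transcripts took 94.5% ± 0.307 of control reads and 94.8% ± 0.0526 of cold reads, and retained_intron transcripts took 1.12% in both. Non-coding processed_transcript forms took 1.53% ± 0.134 and 1.22% ± 0.0159 (SD, n = 3 each). The last difference and that of protein_coding reached the smallest possible exact permutation p of 0.1, and that of retained_intron gave 1.

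The transcript with the most reads in the class comes from Pnpla2, which encodes the adipose triglyceride lipase that opens the breakdown of stored fat. Pnpla2-201 stood at 9549, 10785 and 11950 CPM in control replicates 2, 9 and 14, and at 10320, 12071 and 9010 CPM in cold replicates 4, 11 and 15. The groups overlapped, and the log2 change, given throughout as cold minus control ± SE, was -0.04 ± 0.15 (adjusted p = 0.859, edgeR quasi-likelihood test with Benjamini-Hochberg adjustment over all transcripts). Its share of the reads of Pnpla2 was 57.6%, 57.3% and 58.1% in the controls and 57.3%, 57.6% and 56.9% in the cold, with 95% Wilson intervals of at most 0.717 points to either side. For each read of the leading coding transcript Pnpla2-203, between 1.38 and 1.43 reads were assigned to Pnpla2-201 in each of the 6 libraries. A second member of the gene, Pnpla2-204, carries the same extra exon and held 0.694% to 1.26% of its reads.

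Subunits of the mitochondrial ATP synthase gave the next 2 members by reads. Atp5j2-204, from the gene of subunit f, has an extra exon of 130 nt at chr5:145188193-145188322 on the minus strand, and each of its junctions also occurs in a coding transcript of the gene. It held 48.2%, 47.3% and 48.4% of the reads of Atp5j2 in control replicates 2, 9 and 14 and 48.5%, 49.1% and 49.1% in cold replicates 4, 11 and 15. Its level was 2977, 1699 and 1887 CPM in the controls and 1747, 1532 and 2044 CPM in the cold, where the groups overlapped (log2 change -0.30 ± 0.21). Atp5f1-203, from the gene of subunit b, held 48.6%, 48.3% and 45.9% of the reads of Atp5f1 in the controls and 46.9%, 46.5% and 46.9% in the cold. Its level of 1732 to 1931 CPM in the controls and 1731 to 1807 CPM in the cold did not separate the groups either (log2 change -0.04 ± 0.14).

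Ftl1-202 rose in the cold together with its gene. Ftl1 encodes the light chain of ferritin, the iron store of the cell. Ftl1-202 stood at 1301, 931 and 962 CPM in control replicates 2, 9 and 14, and at 1759, 1650 and 2333 CPM in cold replicates 4, 11 and 15. All cold libraries were higher, with a log2 change of 0.85 ± 0.19 (adjusted p = 0.00555 by edgeR), and the call held without each library in turn. The share of Ftl1 reads overlapped between the groups, at 53.0%, 55.8% and 55.6% in the controls and 53.0%, 54.1% and 53.8% in the cold. Ftl1-ps1, a pseudogene at least 95% identical over at least 50% of the member, held 11074 reads against 41537 for Ftl1, so the split between them is uncertain.

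Dbi-204 held about as many reads as the coding form of Dbi, which encodes the acyl-CoA binding protein. Its share of Dbi reads was 50.2%, 48.3% and 50.5% in control replicates 2, 9 and 14 and 53.6%, 53.8% and 52.8% in cold replicates 4, 11 and 15, so the groups did not overlap. The difference of 3.75 points was not called by the usage test described below (adjusted p = 1, diffSpliceDGE of edgeR). Its level ran from 1257 to 1505 CPM in the controls and from 1428 to 1668 CPM in the cold, with a log2 change of 0.20 ± 0.15.

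The other members among the first 10 fell into a group with a large share of its gene and a group with a small one. Rpsa-206, from a protein gene of the small ribosomal subunit, held 39.1%, 39.6% and 40.9% of Rpsa reads in the controls and 36.2%, 38.8% and 37.9% in the cold. Its log2 change of -0.55 ± 0.24 was not called, but was without cold replicate 15 (-0.81, adjusted p = 0.0229 by edgeR). Fuom-212, from the gene of fucose mutarotase, held 70.8% to 76.0% of its gene in the controls and 73.5% to 75.2% in the cold. Its log2 change of 0.48 ± 0.25 was called only without control replicate 2 (0.82, adjusted p = 0.00955 by edgeR). Lpl-203, with the whole frame of lipoprotein lipase, the enzyme that frees fatty acids from circulating lipoproteins, held 1.47% to 2.79% of Lpl. Pgk1-203, from the gene of the glycolytic enzyme phosphoglycerate kinase, held 2.88% to 4.39% of Pgk1. The shares of Lpl-203 and Pgk1-203 overlapped between the groups.

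**Figure D3:**
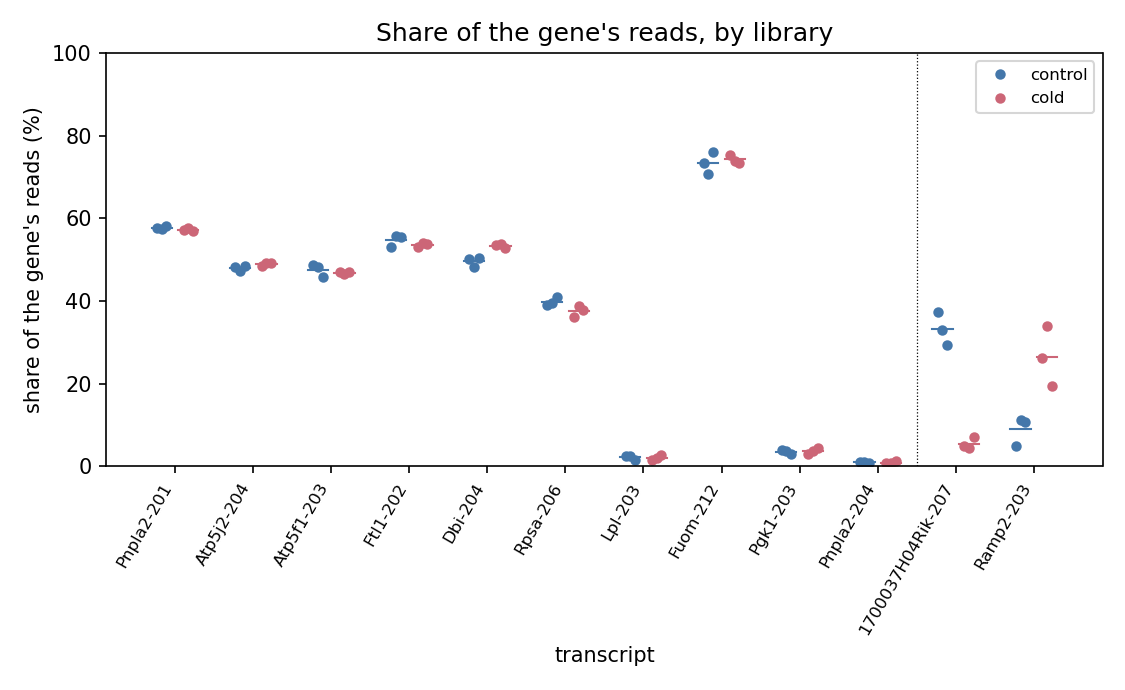
Share of the reads of its gene held by each of the 10 members with the most reads (left of the dotted line) and by both members called for usage (right), in percent, for the 3 control (blue) and 3 cold (red) libraries, with group means as bars. The points of Pnpla2-201 lie between 56.9% and 58.1% in all 6 libraries, while 1700037H04Rik-207 drops from at least 29.4% to at most 7.01%.

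In members of well-read genes the share often moved by few points. A range in points is bound to be small where the share itself is small, and no such range over all transcripts stands beside it here. Of the members tested below, 52 came from a gene with at least 100 reads in every library and did not hold all of its reads. The share of the gene moved by a median of 2.39 points between the lowest and the highest of the 6 libraries, and by less than 5 points in 40 of the 52. It moved by over 10 points in 8, namely 1700037H04Rik-207, Mrap-202, Ndufa12-203, Rps19-205, Rpl10a-203, Gsto1-206, Ramp2-203 and Ramp2-207, which are named here after their values were seen. Mrap-202, from the gene of an accessory protein of the corticotropin receptor, lay at 67.0%, 71.0% and 67.4% in the controls and 64.6%, 60.7% and 65.4% in the cold. Over the 115 members tested, the median share of the gene was 38.6%, with 43 above 50%, 13 below 1% and 9 that held every read of their gene. These 115 passed a filter on their own counts. Among them, 12 belonged to genes without a coding transcript, with a median share of 100%. Over all 678 host genes, the median share held by the members of the gene together was 16.7%.

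The sources used here do not give the rule by which a read that matches several transcripts of 1 gene was placed, and the part of that rule in these shares was not tested. Of the 765 members, 173 had no splice junction of their own, that is, none that another transcript of the gene lacks, and these held 62.3% of the reads of the class. Of 75 members with at least 100 reads, 67 came from a gene with a coding transcript. Of these 67, 50 had both ends inside the leading coding transcript, with a median share of the gene of 40.7%, and 17 did not, with a median of 46.0%. Exons of 92 members overlapped another gene on the same strand, and those of 188 members a gene on the other strand.

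By structure, the extra internal exon was the form with the most reads. The 154 members that differed from the leading coding transcript by an extra internal exon alone held 71.1% of the reads of the class, most of them on Pnpla2-201. A shifted splice site alone marked 228 members with 22.9% of the reads, led by Ftl1-202 and Dbi-204. The 84 members that differed by a skipped exon alone held 0.357%, and each of the 4 tested among them took at most 2.48% of its gene. The 42 members that kept the whole coding frame held 1.70% of the reads. Among these, Mrps34-203, from a gene of the mitochondrial ribosome, took 43.7% to 48.2% of its gene in the controls and 43.6% to 48.1% in the cold. Its exons overlap those of Nme3 on the same strand, and 973 of its 1884 nt lie in no coding transcript of Mrps34. The part of Nme3 in this share was not tested.

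The levels of the members were compared between cold and control within a fit over all transcripts. Of the 765 members, 115 passed the filter on low counts, and they held 98.7% of the reads of the class. In the cold 34 of these changed at an adjusted p under 0.05, against a background of 32.7% among all 2787 transcripts tested. The 34 make 29.6% of the members tested, so the members were called about as often as any transcript. Higher calls numbered 18 and lower calls 16, beside 17.4% higher and 15.3% lower over all transcripts tested. The median log2 change was -0.11 over the members tested and 0.03 over all transcripts tested. These numbers depended on single libraries. Without cold replicate 15, the library with the high muscle markers, there were 11 higher and 18 lower calls, so that the balance turned round. There were 12 higher and 8 lower calls without cold replicate 4, 13 and 6 without cold replicate 11, 14 and 10 without control replicate 9, and 12 and 7 at equal depth. On library totals alone there were 18 higher and 10 lower. Of the 34, 15 were called whichever library was left out.

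Among the 12 members with the smallest p, 7 rose and 5 fell. Cars2-205 showed the largest rise of all members tested. Cars2 encodes the cysteinyl-tRNA synthetase of mitochondria, and the member, on the minus strand of chromosome 8, stops after 226 codons in exon 7 with 8 junctions to come. It stood at 10.8, 15.4 and 8.33 CPM in control replicates 2, 9 and 14, and at 258, 461 and 237 CPM in cold replicates 4, 11 and 15. The groups were far apart, with a log2 change of 4.82 ± 0.35 (adjusted p = 2.74e-06 by edgeR). It was the main form of the gene throughout, at 95.2%, 93.8% and 70.0% of Cars2 reads in the controls, which rested on 14 to 20 reads of the member per library, and at 95.4%, 95.3% and 92.0% in the cold. The remaining Cars2 reads were also called higher, but stood on 1, 1 and 6 reads in the controls, so no fold is given for them.

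Lpl-203 rose in step with Lpl. Its level was 94.5, 95.7 and 97.5 CPM in the controls and 274, 365 and 443 CPM in the cold, a log2 change of 1.91 ± 0.22 (adjusted p = 8.32e-05 by edgeR). The rest of the gene changed by 1.94 ± 0.19 on the same scale. Here and below, the rest leaves out every annotated decay target of the gene. Pgk1-203, called outside the 12, stood at 127, 168 and 173 CPM in the controls and 202, 277 and 280 CPM in the cold (log2 change 0.70 ± 0.22, adjusted p = 0.0272 by edgeR). This call was lost without control replicate 9 (adjusted p = 0.0504 by edgeR), cold replicate 11 (adjusted p = 0.0950 by edgeR) or cold replicate 15 (adjusted p = 0.0778 by edgeR) and on flow cell 1 alone (adjusted p = 0.0590 by edgeR).

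Uqcc1-207 and Isca1-206 belong to genes of mitochondrial assembly. Uqcc1 encodes an assembly factor of respiratory complex III, and Uqcc1-207, the form with the 3 added bases, stood at 16.2, 13.4 and 30.3 CPM in the controls and 72.0, 85.1 and 61.7 CPM in the cold. The lowest cold library was at more than the highest control library, and the log2 change was 1.84 ± 0.31. Its share of Uqcc1 ran from 40.6% to 61.4% in the controls and from 64.5% to 69.0% in the cold. The control values carry a 95% Wilson interval of up to 16.1 points to either side. Within the ends of the leading coding transcript, only the 3 added bases set the member apart from it. How reliably reads were split on 3 bases was not tested, so the level and share of the member are uncertain beyond counting error. Isca1 encodes an iron-sulfur cluster assembly protein, and Isca1-206 rose by 1.82 ± 0.39 on the log2 scale while the rest of the gene rose by 0.94 ± 0.18. It remained a minor form, at 0.549% to 0.773% of Isca1 in the controls and 1.06% to 1.5% in the cold, and its control levels of 2.06 to 2.97 CPM lie near the floor of 3 reads. Neither Uqcc1-207 nor Isca1-206 was called by the usage test described below.

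Mrpl42-205 and Creg1-203 rose with their genes. Mrpl42 encodes a protein of the mitochondrial ribosome, and Mrpl42-205 lay at 4.11 to 5.95 CPM in the controls and at 13.8 to 22.0 CPM in the cold (log2 change 1.85 ± 0.34, rest of the gene 1.74 ± 0.19). Creg1 encodes a secreted glycoprotein, and Creg1-203 lay at 32.1 to 35.1 CPM and at 62.9 to 88.9 CPM (log2 change 1.20 ± 0.23, rest of the gene 1.16 ± 0.27). Creg1-203 took 63.5% to 69.1% of Creg1 reads in the controls and 65.0% to 68.5% in the cold.

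Zfp652-203, from a zinc finger protein gene, is a special case of the annotation. It stood at 51.3, 61.7 and 65.4 CPM in control replicates 2, 9 and 14 and at 232, 210 and 172 CPM in cold replicates 4, 11 and 15, a log2 change of 1.78 ± 0.22 (adjusted p = 0.000116 by edgeR). No other transcript of Zfp652 had a read, and the transcript reaches beyond the leading coding form into exons of Phospho1 on the same strand. Phospho1, a phosphatase gene, had 368 reads of its own and rose by 2.20 ± 0.27 on the log2 scale. Abi3, which overlaps on the other strand, had 220 reads and rose by 1.42 ± 0.29. The part of these neighbours in the level of Zfp652-203 was not tested.

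The 5 members that fell among the 12 with the smallest p were Gstm5-205, Lgals1-202, Pnldc1-205, Ndufa7-202 and 1700037H04Rik-207. Gstm5-205, from a glutathione S-transferase gene, stood at 23.2, 30.9 and 10.7 CPM in the controls and 3.70, 1.66 and 3.55 CPM in the cold, and fell by 2.79 on the log2 scale (SE 0.44). Lgals1-202, from the gene of galectin-1, stood at 49.1, 16.5 and 19.0 CPM and then at 3.36, 3.66 and 6.79 CPM, and fell by 2.64 (SE 0.45), or by 1.93 without control replicate 2. Pnldc1-205, from the gene of an exonuclease of the PARN family, fell by 1.92 (SE 0.37) from a control range of 16.7 to 38.1 CPM to a cold range of 4.52 to 9.64 CPM. In these 3 genes the remaining reads fell too, with log2 changes of -2.17 ± 0.37, -2.19 ± 0.33 and -2.60 ± 0.45. Ndufa7-202 skips an exon of the gene of a complex I subunit, held at most 0.862% of Ndufa7, and fell by 1.37 (SE 0.28) while the rest of the gene fell by 0.93 (SE 0.16). The call for Ndufa7-202 was lost at equal depth (log2 change -0.96, adjusted p = 0.0771 by edgeR).

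**Figure D4:**
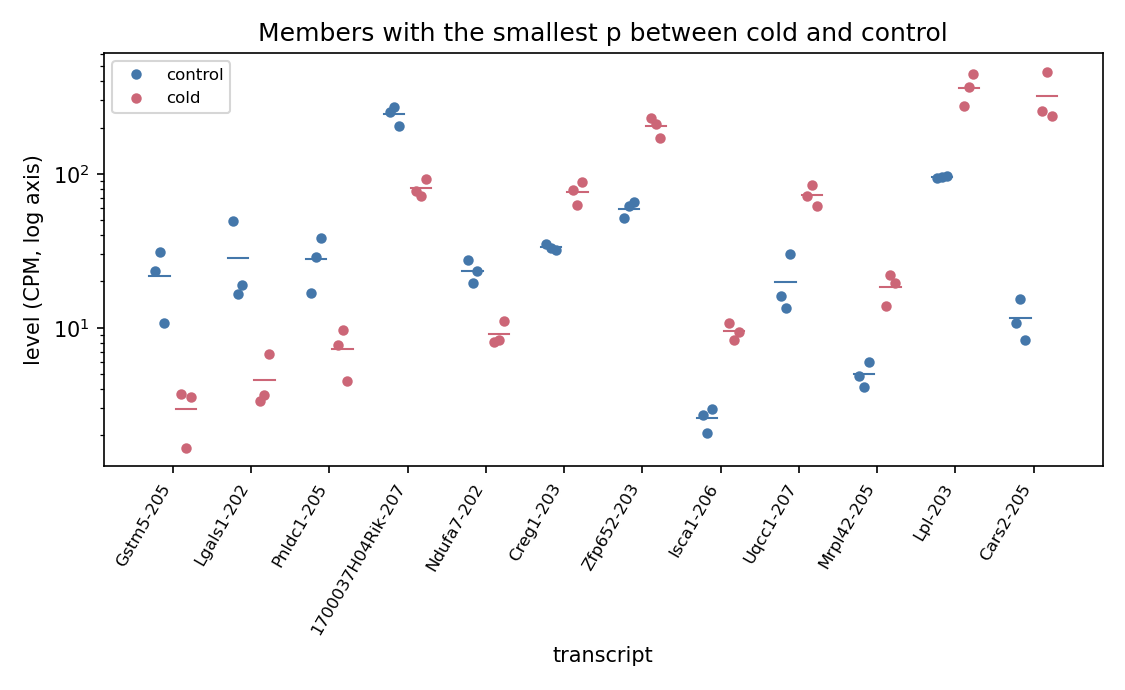
Level in CPM, on a log axis, of the 12 members with the smallest p between cold and control, ordered by log2 change, for the 3 control (blue) and 3 cold (red) libraries with group means as bars. The groups do not overlap for any of these 12 members, from Gstm5-205, the deepest fall, to Cars2-205, which goes from at most 15.4 CPM to at least 237 CPM.

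The called members mostly changed in the direction of the rest of their gene. Of the 34 called members, 29 had a remainder of the gene, without any annotated decay target, that could be tested. It changed in the same direction as the member and was itself called in 23, did not pass the test in 5, and was called in the opposite direction in 1. The same count was not made over all called transcripts, so these numbers have no background. The part of the rule that placed reads among the transcripts of a gene was not tested. The 5 without a called remainder, named here after their values were seen, were Coq6-209, Ndufb5-201, Tbca-203, Spcs2-204 and Acot9-203. Spcs2-204, from the gene of a signal peptidase subunit, rose by 1.15 ± 0.31 while the rest of Spcs2 showed a log2 change of 0.23 ± 0.33. Its share was 33.3%, 36.4% and 39.1% in the controls and 55.4%, 50.5% and 47.1% in the cold. This member had 197 reads in all 6 libraries together and was not called by the usage test described below. The whole host genes, members included, were called in 111 of 332 tested, or 33.4%, against a background of 33.2% of 2093 genes tested, with 66 higher and 45 lower beside backgrounds of 18.1% and 15.1%. Host genes could enter through the deeper cold libraries alone, and the part of that in this balance was not tested.

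**Figure D5:**
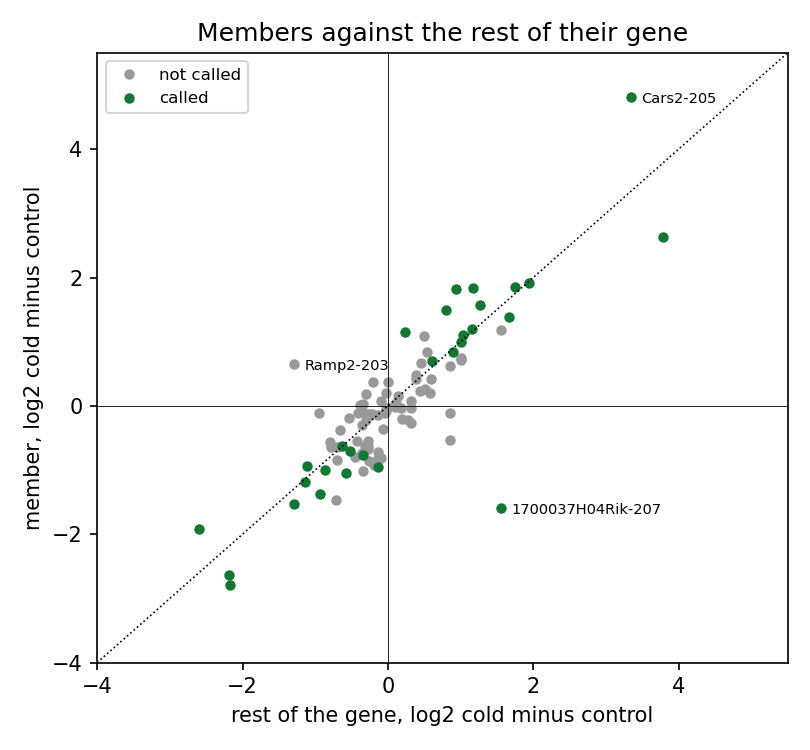
Log2 change in the cold of 95 tested members (vertical axis) against that of the remaining reads of the same gene (horizontal axis). The remaining reads leave out every annotated decay target of the gene. The 29 called members are in green, and the dotted line marks equal change. Most points follow the line, and 1700037H04Rik-207 lies at the lower right, with a fall in the member and a rise in the rest of the gene, which is mostly 1700037H04Rik-204.

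Whether a member changed its share of the gene was tested directly with diffSpliceDGE, which compares a transcript with the other transcripts of its gene. Of 98 members tested, 2 were called, against a background of 0.745% of 1343 transcripts tested, and no further member had an unadjusted p under 0.05. In 17 of the 98 the shares did not overlap between the groups, against a background of 19.7% of the same 1343 transcripts. These were 9 higher in the cold, beside a background of 9.98%, and 8 lower, beside 9.68%. The members called were 1700037H04Rik-207, which lost share, and Ramp2-203, which gained it, beside a background of 0.447% lower and 0.298% higher.

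1700037H04Rik-207 includes an extra exon of 102 nt at chr2:131149441-131149542 on the minus strand, and both junctions of that exon are missing from the coding transcripts. The exon length is a multiple of 3, and the stop codon TGA lies within the exon. The member stood at 252, 273 and 205 CPM in control replicates 2, 9 and 14 and at 77.7, 71.8 and 92.4 CPM in cold replicates 4, 11 and 15, and fell by 1.59 on the log2 scale (SE 0.21). The rest of the gene went the other way, from 420, 553 and 492 CPM to 1520, 1577 and 1226 CPM, a log2 change of 1.55 ± 0.18. This rise lay in 1700037H04Rik-204, a retained_intron transcript with no complete start, which held 58.2%, 63.4% and 68.0% of the gene in the controls and 94.6%, 95.2% and 92.4% in the cold (log2 change 1.63 ± 0.18). The leading coding transcript 1700037H04Rik-202 fell along with the member, by 1.63 (SE 0.28, adjusted p = 0.00106 by edgeR), from 44, 24 and 30 reads to 23, 22 and 19, and was called for usage as well. For each of its reads the member had 10.6 to 11.5 in the controls and 9.82 to 15.1 in the cold. The share of the member was 37.4%, 33.0% and 29.4% in the controls and 4.86%, 4.36% and 7.01% in the cold, with intervals of at most 3.25 points to either side. The usage call (adjusted p = 1.94e-07, diffSpliceDGE of edgeR) held under every alternative run.

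Ramp2-203 gained share while its gene fell. Ramp2 encodes a protein that pairs with the calcitonin receptor-like receptor to form an adrenomedullin receptor. The member held 4.97%, 11.3% and 10.8% of Ramp2 reads in control replicates 2, 9 and 14 and 26.2%, 34.0% and 19.4% in cold replicates 4, 11 and 15, on 15 to 70 reads per library. Its own level of 8.10, 15.4 and 11.3 CPM in the controls and 15.1, 23.3 and 14.5 CPM in the cold overlapped between the groups (log2 change 0.65 ± 0.33), whereas the rest of Ramp2 fell by 1.29 (SE 0.24), with the leading coding transcript Ramp2-204 at -1.33 ± 0.24. The usage call (adjusted p = 0.0177, diffSpliceDGE of edgeR) was lost without control replicate 2, 9 or 14 and without cold replicate 4 or 11, with adjusted p between 0.0619 and 0.360. A second member of the gene, Ramp2-207, was called lower, with a log2 change of -1.52 ± 0.41 (adjusted p = 0.014 by edgeR). It held 16.6%, 13.5% and 9.09% of Ramp2 reads in the controls and 9.88%, 6.31% and 12.1% in the cold. These shares overlapped between the groups and were not called for usage. Ramp2-203 runs on into exons of Vps25, a gene of the endosomal sorting machinery on the same strand, which had 752 reads and rose by 0.85 ± 0.23 on the log2 scale. Of the 1478 nt of Ramp2-203, 1206 lie in no coding transcript of Ramp2. Of its 7 junctions, 6 occur in no other transcript of the gene. Vps25 is at least 95% identical over at least 50% of the member, so the split of reads between them is uncertain. The part of Vps25 in the share of Ramp2-203 was not tested.

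Host genes were also grouped by function, and the counts of calls stand beside a background of 32.7% of transcripts called, 17.4% higher and 15.3% lower, and of 0.745% for usage. Mitochondrial energy metabolism held 48 members of 45 genes and 20.5% of the reads of the class, mostly on Atp5j2-204 and Atp5f1-203. Of its 23 members tested, Mrpl42-205 rose and 4 fell, these being Ndufa7-202, Ndufb5-201, Ndufa10-207 and Idh2-204, with a median log2 change of -0.19. Ribosomal protein genes held 20 members of 17 genes and 2.17% of the reads. Of the 6 tested, Rps19-205 fell by 1.18 on the log2 scale (SE 0.30) and none rose, with a median of -0.59. Splicing and RNA-binding protein genes, the textbook case of this control, held 35 members of 27 genes but 0.248% of the reads. Both members tested there, of which Ddx5-208 from an RNA helicase gene had the more reads, missed the threshold. No member of the 3 lists changed its share of the gene at the threshold.

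The genes of the decay pathway itself were read thinly. Of 34 genes on the list, 21 had reads, 914 in all, and 4 passed the filter. None of the 4 was called by edgeR, against a background of 33.2% of genes, while 1 had an unadjusted p under 0.05. That gene was Pnrc2, an adaptor that links UPF1 to the decapping enzymes, at 26.9, 52.2 and 49.6 CPM in control replicates 2, 9 and 14 and at 24.4, 26.4 and 26.3 CPM in cold replicates 4, 11 and 15. The cold libraries lay below each control library, with a log2 change of -0.72 ± 0.28 (adjusted p = 0.0654 by edgeR), and the gene was called by DESeq2 and without control replicate 2. The exon junction complex genes Eif4a3, Magoh and Rbm8a gave log2 changes of 0.11 ± 0.35, 0.15 ± 0.36 and -0.17 ± 0.38, at levels of 3.59 to 16.1 CPM. The core factor Upf1 and the kinase gene Smg1 had no read, which at these depths allows up to 2.96 CPM in the shallowest library. Exosc10, a nuclease gene on the list, was also a host, and its member Exosc10-203 held 3 of its 8 reads.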

How the data were processed

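The authors deposited raw counts, the number of reads per Ensembl transcript on 1 flow cell, in 12 files for 6 libraries. The submitters' processing notes name minimap2, without a version, and GRCm38. Per the labels' protocols, 2 rounds of poly(A) selection preceded the TeloPrime kit, which favours full-length cDNA, with 27 PCR cycles. The counts were summed over both flow cells, and unlisted transcripts were taken as 0. Of 14693 identifiers, 14671 matched GENCODE M21 with the version dropped, and the 22 others held no more than 0.00433% of the reads in any library. Transcripts and genes were tested with the quasi-likelihood F test of edgeR 4.0.16 in R 4.3.3 (TMM scaling, filterByExpr at a minimum count of 10), with Benjamini-Hochberg adjustment over all features tested and calls at an adjusted p under 0.05. Each SE was worked back from F and the log2 change. Usage was tested with diffSpliceDGE. The scripts were tested on simulated data. DESeq2 1.42.0 and limma 3.58.1 served as alternatives, and blastn 2.17.0 found near-identical copies. Single values per library were compared by exact permutation. Named members are the 10 with the highest mean CPM, the 12 called with the smallest p, those called for usage, and others marked in the text. The members and lists were chosen with earlier results of these data known.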

Additional observations from a re-analysis of the deposited data

How the results depend on the processing

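No paired analysis was possible because no mouse number occurs in both groups. The number of members called, 34, was 22 on flow cell 1 alone, 19 at equal depth, and 19 to 30 when 1 library was left out. DESeq2 called 29 of the 34. The number called for usage went from 2 to 1 with no filter on low counts, on flow cell 2 alone, at equal depth and with each gene collapsed into decay targets and others, and was 1 to 2 when 1 library was left out. Pathway genes called went from 0 to 1 with DESeq2 and were 0 to 1 when 1 library was left out. The share of host gene reads, lower in the cold by 0.456 points, was higher by 0.164 points without Pnpla2-201 and by 0.114 points without the 5 host genes with the most member reads, the latter tried after seeing the data, as was the class share without the first 5 members. The difference in members seen at equal depth, 4.67, ranged from -4.83 to 13.7 when 1 library was left out, being -0.500 without control replicate 9 and -4.83 without cold replicate 15. Small changes that were not called turned sign: on library totals alone Pnpla2-201 was at 0.029 and Atp5f1-203 at 0.033, and with no filter these were at 0.073 and 0.072 and Pnpla2-204 at 0.033. With 1 library left out, Pnpla2-201 ran from -0.15 to 0.043 and Pnpla2-204 from -0.26 to 0.076, and of the pathway genes Eif4a3 ran from -0.19 to 0.62, Magoh from -0.14 to 0.40 and Rbm8a from -0.48 to 0.24. On flow cell 2 alone Eif4a3 was at -0.24 and Rbm8a at 0.0011. The cause was not tested. Depth limits the rest: 650 of the 765 members were too thinly read to test.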
